A study of Homo sapiens with 4 samples.

Results

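The replication-dependent histone genes were taken as all protein-coding genes of the deposited table whose symbol names an H1 gene from H1-1 to H1-6 or a gene of the H2AC, H2BC, H3C or H4C series. This rule found 66 genes among the 51740 rows of the table: 6 for the linker histone H1, 16 for H2A, 17 for H2B, 13 for H3 and 14 for H4. RNA was sequenced from nuclear and cytoplasmic fractions of HEK293T, an established human embryonic kidney line with SV40 large T antigen. All 4 libraries came from wildtype cells that had been crosslinked with formaldehyde, with 2 replicates for the nuclear and 2 for the cytoplasmic fraction, and the only labelled difference between the groups was the fraction. Libraries were prepared from 400 ng of RNA each after ribosomal RNA depletion, so that values compare shares of the RNA of a fraction and not amounts per cell. The question was where in the cell the transcripts of each histone class reside.

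Replication-dependent histone genes supply the proteins that package newly made DNA. H2A, H2B, H3 and H4 form the core of the nucleosome, and H1 binds the linker DNA between nucleosomes. Their mRNAs are made in S phase, lack introns, and end in a conserved stem-loop in place of a poly(A) tail. The stem-loop is bound by SLBP, and the U7 snRNP directs the cut behind it.

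The 3′ stem-loop was read from the hg38 assembly for every member, because it is the element that sets these mRNAs apart from polyadenylated ones and the selection by symbol did not use it. The first 150 bases after the annotated stop codon were searched on the sense strand for a stem of 6 base pairs opening with GG, closed by a loop of 4 bases that opens with TT. A full match was found in 61 of 66 members (92.4%), with the stem starting 22 to 67 bases after the stop codon. Of 19830 other protein-coding genes, from which histone genes had been left out by symbol, 2 had such a match (0.0101%). Of 28 other histone genes, kept out of that number, 6 had one: H2AX, H2AC25, H2BC26, H3-4, H3-7 and H4C16. H2AC25, H2BC26 and H4C16 bear names of the series in the rule, but no member was found under these symbols. The following examples were chosen to show the common forms and the exceptions, each as 26 bases with stem and loop in capitals.
H1-2, chr6:26055739-26055764, minus strand: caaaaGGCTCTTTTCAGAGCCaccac
H3C2, chr6:26031592-26031617, minus strand: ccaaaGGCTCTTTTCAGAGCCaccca
H2BC5, chr6:26158582-26158607, plus strand: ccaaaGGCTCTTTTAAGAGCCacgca
H4C3, chr6:26104312-26104337, plus strand: ccaaaGGCCCTTTTCAGGGCCgctca
H4C14, chr1:149833027-149833052, plus strand: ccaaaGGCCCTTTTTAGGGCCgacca
H2AC11, chr6:27133510-27133535, plus strand: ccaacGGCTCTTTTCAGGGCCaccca
H2AC15, chr6:27837880-27837905, minus strand: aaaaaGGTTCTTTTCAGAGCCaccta

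The form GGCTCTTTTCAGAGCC was shared by 38 members, 4 of H1, 12 of H2A, 11 of H2B and 11 of H3. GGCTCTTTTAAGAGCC was found in 9 members, 5 of them H2B genes, and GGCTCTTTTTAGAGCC in 1 H2A gene. The H4 class stood apart in its letters, since all 13 matching H4 genes carried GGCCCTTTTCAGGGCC (9 genes) or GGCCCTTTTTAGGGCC (4 genes), forms that occurred in no other class. H2AC11 and H2AC15 matched at 5 of the 6 pairs, where only A-T and G-C were counted. At the remaining position T lies opposite G in both genes, so their stems need not be broken in the RNA. At least 5 counted pairs were found in 0.298% of the other protein-coding genes, histone genes again left out by symbol. H2BC10, H3C6 and H4C13 had no match, which says only that these letters are not in the window searched.

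In the deposited table each gene has a mean over the 4 libraries, a log2 fold change of cytoplasm over nucleus and its standard error, and from these 3 values the counts of single libraries were recovered. The recovered libraries are named the deeper and the shallower one of their fraction, because which of them is replicate 1 is not known. Recovered genes held 23141726 and 20201202 counts in the nuclear libraries and 18341938 and 16825429 counts in the cytoplasmic libraries, with size factors of 1.34 and 1.19 against 0.853 and 0.755. A normalized count is a count divided by its size factor. As a check of the fractions, the nuclear RNAs MALAT1 and NEAT1 had log2 fold changes of -3.47 and -3.09 and the mRNAs GAPDH and ACTB of 3.78 and 2.68. Scaling both fractions to equal library totals lowers every log2 fold change by 0.66. The median over all 23333 tested genes was -0.12.

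Histone transcripts were far higher in the cytoplasmic fraction in every class. In the authors' deposited DESeq2 comparison, 56 of 62 tested members were called cytoplasmic (adjusted p-value no greater than 0.01), as were 25.9% of all tested genes. None of the 62 was higher in the nuclear fraction, where 26.5% of all tested genes were, and 0 members were lower in the cytoplasm at an unadjusted p-value under 0.05, by DESeq2 or by limma on the recovered counts. In 61 members both cytoplasmic libraries lay above both nuclear libraries, as they did in 40.5% of the 23239 tested genes with recovered counts. By limma on the recovered counts 59 of the 62 members were higher in the cytoplasm, against 29.3% of genes. Members made up 0.258% of the normalized counts of the nuclear fraction and 2.997% of those of the cytoplasmic fraction, and their summed level was 18.4 times higher in the cytoplasm. The p-values rest on 2 libraries per fraction.

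**Figure D1:**
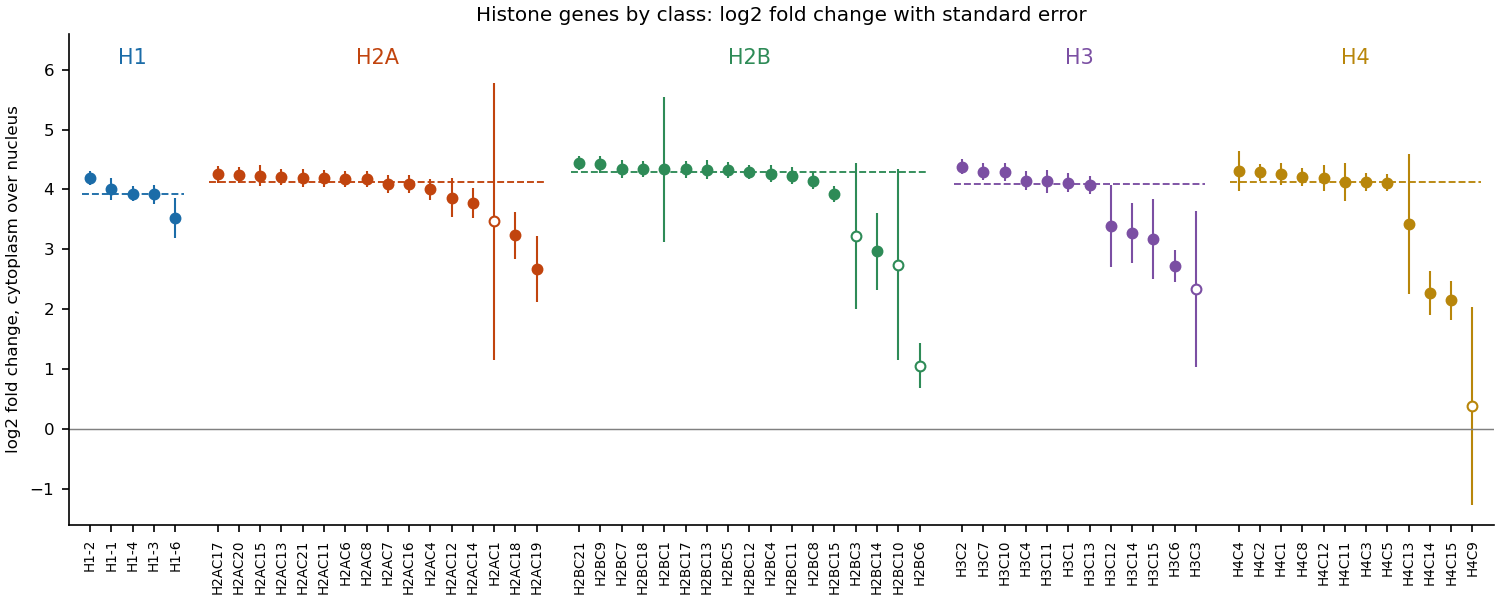
Log2 fold change of cytoplasm over nucleus for each of the 62 tested histone genes, ordered within the classes H1, H2A, H2B, H3 and H4. Points are the deposited estimates with their standard error as bars, filled for called and open for uncalled genes, and dashed lines are class medians, from 3.93 for H1 to 4.29 for H2B.

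Class medians of the log2 fold change lay close together. They were 3.93 for H1 (5 tested members, 3.52 to 4.19), 4.13 for H2A (16 members, 2.68 to 4.25), 4.29 for H2B (17 members, 1.06 to 4.44), 4.09 for H3 (12 members, 2.33 to 4.38) and 4.12 for H4 (12 members, 0.38 to 4.30). The medians of the classes spanned less than the range inside any single class. Higher in the cytoplasm were 5 of 5 tested H1 genes, 15 of 16 H2A, 14 of 17 H2B, 11 of 12 H3 and 11 of 12 H4 genes. Members are not replicates, and no test between classes was made.

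Linker histone genes had the lowest class median, and 2 of them carried nearly all of the class. H1-2 (chromosome 6, 26055740 to 26056470, minus strand) was at 4355 and 4996 normalized counts in the deeper and shallower nuclear library and at 76869 and 93840 in the cytoplasmic ones. The groups did not overlap, and the log2 fold change was 4.19 ± 0.12, where ± gives the standard error of a log2 fold change here and hereafter. H1-4 had nearly the same nuclear level, 4234 and 5113, with 64315 and 78172 in the cytoplasm.

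H1-4 therefore had a lower log2 fold change, 3.93 ± 0.13. H1-3 was 3.92 and H1-1 was 4.01, at far lower levels. H1-6, a linker histone gene known from the testis, was lowest at 3.52 ± 0.34, with 24 and 27 counts in the nuclear and 196 and 176 in the cytoplasmic libraries. Its exon lies within the span of H2BC4 in GENCODE 44, as does that of H4C3. H1-5 was not tested, since it had 1 count in the deeper cytoplasmic library and 0 in the others. All of its 100-base windows occur once in the genome, and no other gene in GENCODE 44 overlapped its exon. The authors counted on an earlier annotation, whose overlaps were not examined.

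H2A genes with a mean over 1000 lay between 3.86 and 4.25. The abundant members H2AC11 and H2AC13 had log2 fold changes of 4.18 and 4.21, and the highest, H2AC17 and H2AC20, 4.25 and 4.24. H2AC11 was at 1653 and 1895 normalized counts in the nuclear and at 27146 and 37263 in the cytoplasmic libraries, and H2AC13 was at 1547 and 1900 against 28668 and 35041. In both genes each cytoplasmic library lay above both nuclear libraries. H2AC6, annotated with 2 exon blocks over 14.972 kb, was at 4.17 ± 0.14.

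H2AC12 and the H4 gene H4C4 had the widest errors among members with a mean over 1000, and H2AC12 was at 3.86 ± 0.33. Its nuclear libraries were close, with 831 and 925 normalized counts, while its cytoplasmic ones differed more, with 9916 and 15563. H2AC14 was at 3.77 ± 0.25. H2AC19 and H2AC18 on chromosome 1, none of whose 100-base windows occurs once in the genome, were lowest at 2.68 ± 0.55 and 3.23 ± 0.39. H2AC1, a testis gene, had 1 count in the nuclear libraries together and 7 in the cytoplasmic ones. That ratio of 11.02 had a 95% counting interval of 1.42 to 497, and the gene was not called (DESeq2 adjusted p-value 0.191).

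H2B genes had the highest class median and the highest single member. H2BC21 (chromosome 1, 149884459 to 149886682, minus strand) was at 1695 and 1932 normalized counts in the nuclear and 35949 and 42560 in the cytoplasmic libraries. Its log2 fold change of 4.44 ± 0.12 (DESeq2 adjusted p-value 7.53e-295) was the highest of the members. Its canonical transcript, with 2224 bases, runs past the stem-loop, while those of all other members measure 386 to 797 bases. H2BC9 followed at 4.42 ± 0.14.

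The most abundant H2B members, H2BC12 and H2BC18, had log2 fold changes of 4.29 and 4.34. H2BC12 was at 2361 and 2748 normalized counts in the nuclear and 45340 and 54675 in the cytoplasmic libraries, and H2BC18 at 2063 and 2387 against 39473 and 50913, again without overlap. Of the H2B genes with long annotated spans and a mean over 1000, H2BC4 (37.61 kb) was at 4.26, H2BC5 (13.228 kb) at 4.32, H2BC11 (6.899 kb) at 4.22, H2BC18 (29.685 kb) at 4.34 and H2BC15 (17.165 kb) at 3.92, the lowest H2B gene of that level.

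H2BC6 was the exception among well-measured members. It has 4 exon blocks over 12.597 kb, and its recovered counts were 67 and 50 in the nuclear and 71 and 82 in the cytoplasmic libraries. On the normalized scale the cytoplasmic libraries, at 83.2 and 108.7, lay above the nuclear ones, at 49.96 and 42.0. The log2 fold change was 1.06 ± 0.38 and just missed the threshold (DESeq2 adjusted p-value 0.0106), while limma on the recovered counts called it at an adjusted p-value of 0.00152. On the scale of equal totals it was at 0.39 (recomputed DESeq2 adjusted p-value 0.378). It was lower than H2BC5 by 3.26 on the log2 scale, with a 95% interval of 2.47 to 4.06.

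Of the H2B genes not yet named, H2BC7, H2BC8, H2BC13 and H2BC17 had log2 fold changes of 4.35, 4.14, 4.33 and 4.33. The others, H2BC14, H2BC1, H2BC3 and H2BC10, had few counts. H2BC14 had 17 nuclear and 86 cytoplasmic counts and a log2 fold change of 2.96 ± 0.65. H2BC1, a testis gene, had 3 nuclear and 37 cytoplasmic counts, a ratio of 19.4 with a 95% counting interval of 6.15 to 98.4. H2BC3 had 4 and 24 counts and was not called (DESeq2 adjusted p-value 0.0152), though limma passed it at 0.000995. H2BC10 had 3 and 13 counts, a ratio of 6.82 with an interval of 1.87 to 37.3, and was called by neither test, with a DESeq2 adjusted p-value of 0.130 and 0.0127 in limma.

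In the H3 class, H3C2 (chromosome 6, 26031589 to 26032099, minus strand) carried 42.3% of the cytoplasmic level. It was at 2440 and 2994 normalized counts in the nuclear and at 51160 and 61890 in the cytoplasmic libraries, so that every cytoplasmic value was far above the nuclear ones, and its log2 fold change was 4.38 ± 0.13. H3C10 and H3C7 stood at 4.29 and 4.30. H3C6 departed from these, with 62 and 55 counts in the nuclear and 248 and 240 in the cytoplasmic libraries and a log2 fold change of 2.72 ± 0.27.

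H3C6 lacks a match to the stem-loop and is annotated with 2 exon blocks. The difference between H3C2 and H3C6 was 1.66 with a 95% interval of 1.08 to 2.25. H3C14 and H3C15, whose sequence likewise recurs in the genome, were at 3.28 ± 0.50 and 3.17 ± 0.67. H3C12, with 2 exon blocks, was at 3.38 with 12 nuclear and 79 cytoplasmic counts. H3C3 had 5 and 16 counts, a log2 fold change of 2.33 ± 1.31 and a DESeq2 adjusted p-value of 0.113, and limma passed it at 0.00712. H3C8 was not tested, with 1 count in each nuclear library and 0 in the cytoplasmic ones.

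Among H4 genes, which encode the most conserved of the histone proteins, H4C4 and H4C2 had the highest log2 fold changes, 4.30 and 4.28. H4C4 was at 668 and 778 normalized counts in the nuclear and at 11133 and 17444 in the cytoplasmic libraries. Like H2AC12, H4C4 thus differed more between its cytoplasmic libraries than other members with a mean over 500 did, and its standard error was 0.33 against 0.14 for H4C2. H4C3 and H4C5, the most abundant, were at 4.12 and 4.11, H4C3 with 1340 and 1713 normalized counts in the nuclear and 22776 and 30411 in the cytoplasmic libraries. H4C8, with 3 exon blocks, was at 4.21.

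H4C15 and H4C14 on chromosome 1, which have no window that occurs once and 3 annotated exon blocks each, were lower. H4C15 had 53 and 48 counts in the nuclear and 141 and 142 in the cytoplasmic libraries and a log2 fold change of 2.15 ± 0.32. H4C14 had 36 and 35 against 119 and 100 and a log2 fold change of 2.28 ± 0.37. The libraries of the fractions did not overlap in either gene, and the difference of H4C15 minus H4C14 was -0.13 with an interval of -1.08 to 0.82. H4C3 was above H4C15 by 1.98, with an interval of 1.28 to 2.67.

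H4C13, with 4 nuclear and 27 cytoplasmic counts, was called at a DESeq2 adjusted p-value of 0.0068, but not with equal library totals, where the recomputed adjusted p-value was 0.0313. H4C9 was the lowest tested member, with 2 and 5 counts in the nuclear and 4 and 2 in the cytoplasmic libraries. These overlapped, and its log2 fold change of 0.38 ± 1.66 was below 0 (-0.28) with equal library totals (DESeq2 adjusted p-value 0.861 as deposited). H4C6 and H4C7 had 0 counts in all 4 libraries, which allows up to 3 counts in each fraction, although every 100-base window of both genes occurs once in the genome.

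**Figure D2:**
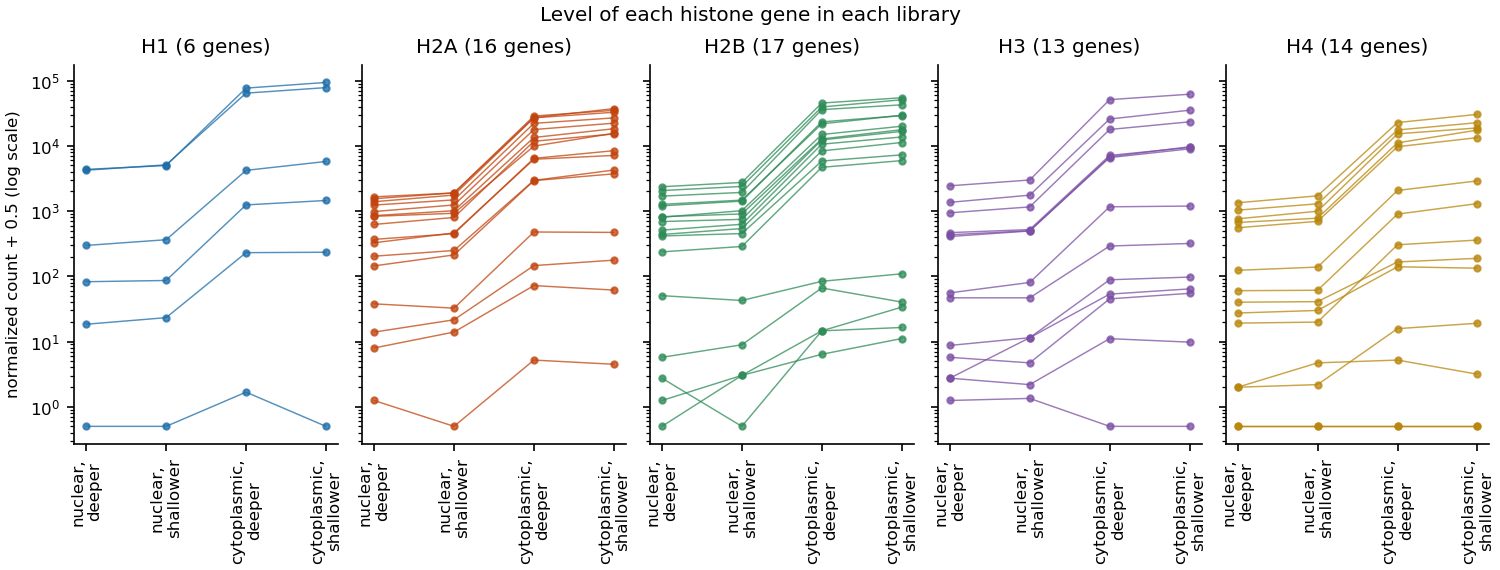
Normalized count plus 0.5, on a log scale, of each of the 66 histone genes in the 4 recovered libraries, 1 panel per class and 1 line per gene. Except for H4C9 and the untested H1-5, H3C8, H4C6 and H4C7, each gene is higher in both cytoplasmic than in both nuclear libraries, and the abundant genes also rise from the deeper to the shallower library of each fraction.

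Summed over members, the classes differed in level more than in their ratio between fractions. The cytoplasmic total was 16.7 times the nuclear one for H1, 17.9 for H2A, 19.7 for H2B, 19.5 for H3 and 18.1 for H4. Taking the libraries in pairs, the ratio for a class ran from 13.9 to 20.0 for H1 and from 16.2 to 23.8 for H2B, so that the ranges of the lowest and the highest class overlapped. Without H1-2, which held 52.3% of the cytoplasmic level of its class, the H1 ratio was 15.2. Per kb of canonical mRNA, the cytoplasmic level of H2A was 1.83 and 1.93 times that of H1 in the deeper and shallower library, that of H2B 2.21 and 2.32 times, that of H3 1.21 and 1.27 times and that of H4 1.02 and 1.13 times. In the nuclear libraries the same ratios were 1.73 and 1.80 for H2A, 1.96 and 1.94 for H2B, 1.04 and 1.09 for H3 and 0.968 and 1.03 for H4. The ratio to H1 was thus lower in both nuclear libraries than in both cytoplasmic ones for H2A, H2B and H3, and the libraries overlapped for H4. These ratios were not tested. H2BC21 was divided by all 2224 bases of its canonical transcript, which lowers the H2B level per kb. In the cytoplasm H2BC21 had a mean of 39255 and 17650.6 per kb, and H2BC18 a mean of 45193 and 91855.5 per kb.

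**Figure D3:**
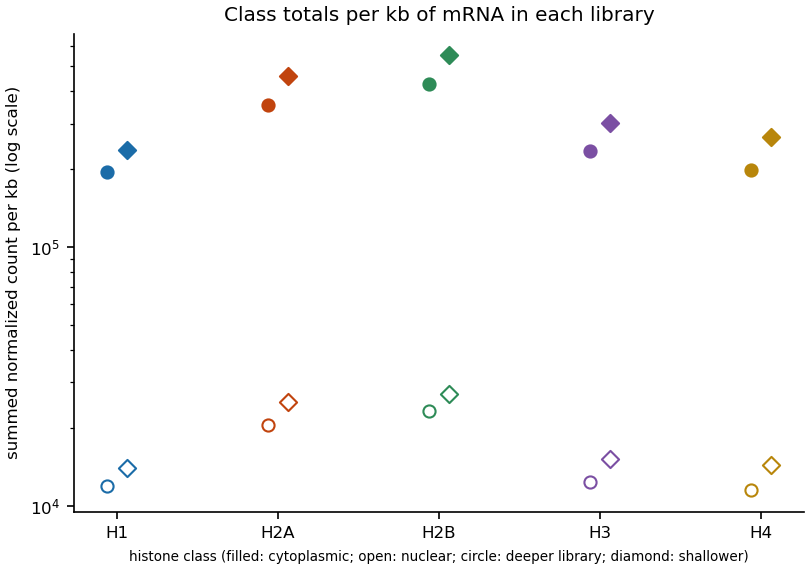
Summed normalized count per kb of canonical mRNA for each histone class, on a log scale, with filled symbols for the cytoplasmic and open symbols for the nuclear libraries, circles for the deeper and diamonds for the shallower library. H2A and H2B lie above H1, H3 and H4 in every library, and diamonds lie above circles in every class.

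The spread among members went with their level. The 39 members with a mean normalized count over 1000 lay between 3.86 and 4.44 with a median of 4.21, and all 39 were called. The 12 members with a mean of 50 to 1000 had a median of 3.40, and 11 were called. The 11 with a mean of at most 50 had a median of 3.17 and a median standard error of 1.21, and 6 were called. Ordered by log2 fold change, 1 of 61 neighbouring pairs differed by more than the 95% interval from both standard errors, H4C15 over H2BC6. Below the highest member, H2BC21, 16 of 61 members differed by more than that interval. Among these 16 were H1-1, H1-3, H1-4 and H1-6 of the 5 tested H1 genes.

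Gene structure and repeated sequence differed among members in ways the selection did not use. All 66 canonical transcripts have a single exon in GENCODE 44, but other annotated transcripts give 13 tested members several exon blocks, and reads over introns were counted too. At a mean over 1000 there were 7 of these, with a median of 4.22 (3.92 to 4.34), like the abundant members as a whole, while the 6 with a lower mean had a median of 2.50 (1.06 to 3.47). Those 6 were H2BC6, H4C15, H4C14, H3C6, H3C12 and H2AC1. Members with 1 exon block had a median of 4.13 over 49 genes.

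For every member each 100-base window of the canonical exon was looked up on both strands of hg38, since reads were 100 bases long. Reads were sequenced in pairs, and the lookup took each window alone, without its mate. In 48 tested members at least 95% of windows occurred once, and their median was 4.15. The 14 members below that share had a median of 3.92. Of these, 6 had no window that occurs once, namely H2AC18 and H2AC19, H3C14 and H3C15, and H4C14 and H4C15 on chromosome 1, and these 6 had a median of 2.92 (2.15 to 3.28) at means of 32.4 to 108.3. Not every gene with repeated sequence had a low value: H4C11 and H4C12, with 9.3% and 8.7% of windows occurring once, were at 4.13 and 4.19, and H2AC13, with 41.2%, was at 4.21. For these libraries the paper names a minimum overlap as the only featureCounts flag, and none for reads with several places in the genome. For other libraries it writes that featureCounts normally reads multiple mapping from a flag in the alignment. What was done with such reads here is not stated outright, so the assignment of reads among copies is uncertain. Canonical exons overlapped by another annotated gene, in 9 tested members, had a median of 4.15. The 5 tested members without a full match to the stem-loop had a median of 3.41, from H3C6 at 2.72 to H2AC15 at 4.23. H2AC11, 1 of these 5, was the most abundant H2A gene at a log2 fold change of 4.18. The part of gene structure and of repeated sequence was not tested.

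**Figure D4:**
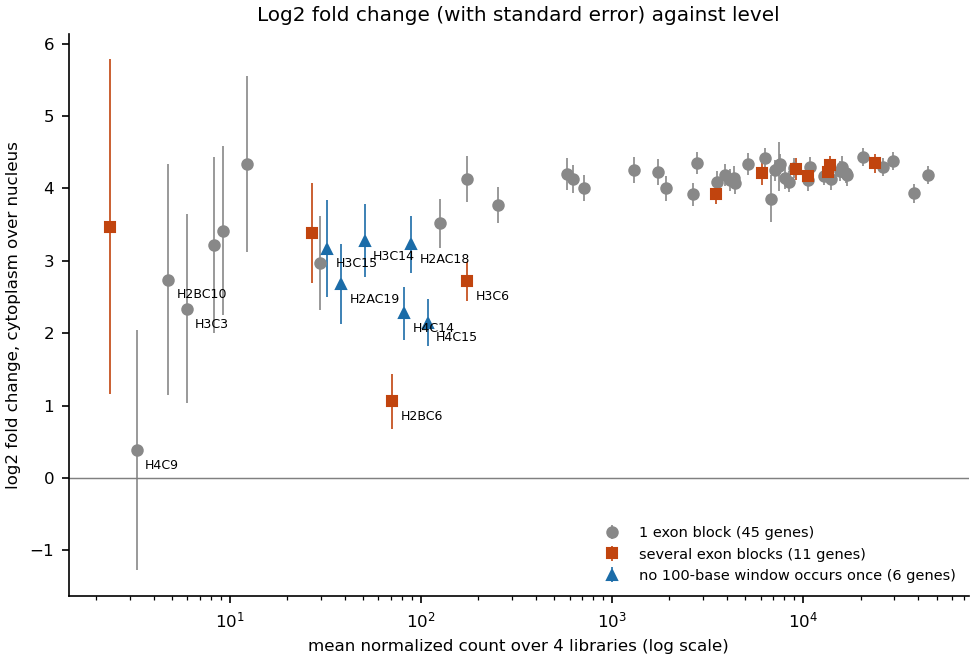
Log2 fold change of cytoplasm over nucleus with its standard error against the mean normalized count over 4 libraries, on a log axis, for the 62 tested histone genes. Squares are genes with several exon blocks, triangles the 6 genes of which no 100-base window occurs once (H4C14 and H4C15 also have several exon blocks), and circles the others. Genes with a mean over 1000 form a band from 3.86 to 4.44, and the lower values belong to genes with a lower mean.

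Histone transcripts also moved together between libraries of the same fraction. Summed over all members, the normalized level was 42553 in the deeper and 50952 in the shallower nuclear library, and 756451 and 964401 in the cytoplasmic libraries. By class, the shallower nuclear library was 1.16 (H2B) to 1.25 (H4) times the deeper one, and the shallower cytoplasmic library 1.22 (H1) to 1.35 (H4) times. Every class was thus higher in the shallower library of both fractions.

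Size factors set the median gene near equality, so all 8476 genes with a mean over 500 serve as background. In the nuclear libraries the median log2 ratio of shallower to deeper was 0.28 over the 42 members with such a mean (0.02 to 0.56) against 0.00 over all genes. In the cytoplasmic libraries it was 0.38 over members (0.04 to 0.65) against 0.06 over all genes. All 42 members were above 0 in both fractions, and 20 of them in the nuclear and 35 in the cytoplasmic libraries were above the level that 5% of all genes exceed. The 71 ribosomal protein genes had a median of 0.33 in the nuclear libraries and of -0.12 in the cytoplasmic ones. Of these 71, 55 in the nuclear (77.5%, against 47.6% of members) and 0 in the cytoplasmic libraries were above that same level. In bulk RNA, more cells in S phase, more histone mRNA per cell and differences in preparation cannot be told apart. No library difference was tested, and which libraries share a replicate is not known.

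**Figure D5:**
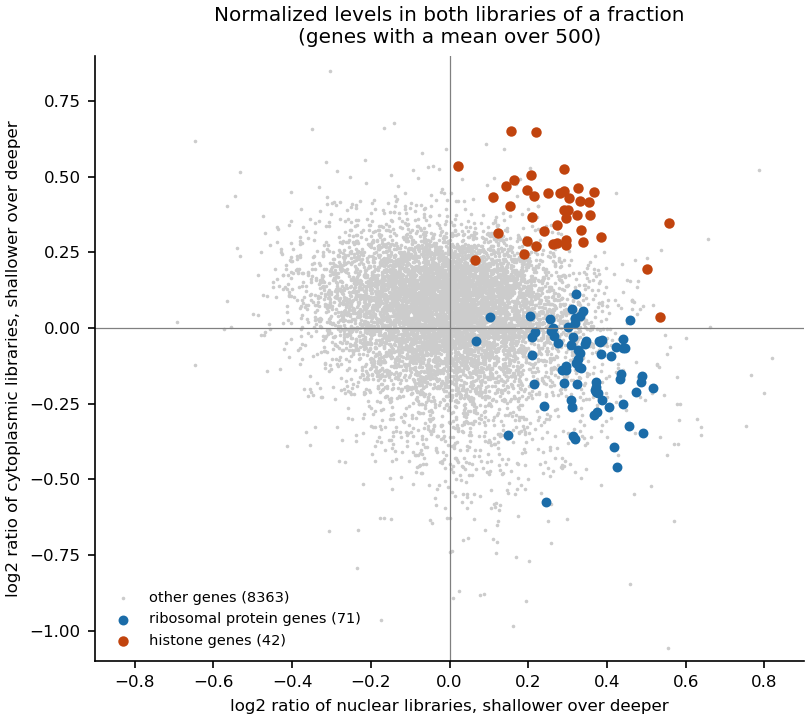
Log2 ratio of the normalized counts of the shallower over the deeper library, nuclear on the horizontal and cytoplasmic on the vertical axis, for genes with a mean normalized count over 500. The 42 histone genes lie in the upper right, above 0 on both axes, while the 71 ribosomal protein genes have a median of 0.33 on the nuclear and -0.12 on the cytoplasmic axis.

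Other gene groups were set beside the members, with no test between them. Replacement histone genes, many of which are made throughout the cell cycle from polyadenylated mRNAs, had a median log2 fold change of 2.41. Of 11 tested genes, the deposited DESeq2 comparison called 9 cytoplasmic and 0 nuclear, and 2 were not called. The highest was H2AX at 3.54 ± 0.12. H2AX, the variant phosphorylated at DNA breaks, is known to be made from mRNAs with either kind of 3′ end. H2AZ1 followed among called genes at 3.20, and H3-3A and H3-3B, which encode the same H3.3 protein, were at 2.07 and 2.71. MACROH2A1 was at 0.05 ± 0.12, and CENPA, the centromeric H3, was at 1.55. All abundant members, at 3.86 or more, lay above H2AX. Ribosomal protein genes, 77 tested by symbol, had a median of 3.53 (2.46 to 4.01), and all 77 were called cytoplasmic. A further 329 protein-coding genes annotated with 1 exon block were at a median of 1.92, with 215 cytoplasmic and 6 nuclear genes.

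Genes that act in making, exporting, translating and degrading histone mRNA were listed together with 6 histone chaperone genes. This list had a median log2 fold change of 1.13. Of 54 listed genes 53 were matched by symbol and tested, and DESeq2 as deposited called 38 of them cytoplasmic and 10 nuclear, against 35.6% and 28.4% of all protein-coding genes tested. With equal library totals the numbers were 27 and 13, against 22.4% and 42.6% of protein-coding genes. For 3′ end processing 15 of 18 genes were cytoplasmic and 2 nuclear, for transcription in S phase 6 and 2 of 8, for translation and export 5 and 0 of 6, for decay 9 and 5 of 15, and for histone chaperones 3 and 1 of 6.

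SLBP, the stem-loop binding protein, had 1124 and 1007 counts in the nuclear and 1949 and 1675 in the cytoplasmic libraries, and a log2 fold change of 1.42 ± 0.12. The cytoplasmic values were higher on both the count and the normalized scale. LSM11, a subunit of the U7 snRNP, was at 2.12 and ZNF473, which takes part in the same processing step, at 1.33 ± 0.14. Highest were ALYREF, an mRNA export adaptor, at 2.998, LSM4, of the ring that binds RNA 3′ ends, at 2.86 and MIF4GD, which binds SLBP in translation, at 2.77. Lowest were TUT4, a terminal uridylyltransferase, at -1.75, FIP1L1, a subunit of the cleavage and polyadenylation factor, at -1.43 and NPAT, the activator of histone gene transcription, at -1.21. NPAT had 3375 and 2838 counts in the nuclear and 860 and 842 in the cytoplasmic libraries, so that the direction was the opposite of that of the histone genes. Reads over introns entered these values, and no member has an intron in its canonical transcript.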

How the data were processed

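RNA of 2 nuclear and 2 cytoplasmic fractions of HEK293T cells was sequenced, and 1 table was analysed. The authors aligned the reads to hg38 with STAR, counted them per gene over exons and introns with featureCounts 2.0.2 on an annotation derived from GENCODE, with stretches shared by several genes removed, and compared the fractions with DESeq2. The deposited mean is a signal per gene, the mean normalized count over all libraries, and the deposited log2 fold change, its standard error on the log2 scale, the p-value and the adjusted p-value are the authors' own estimates. These columns were used because the table has no others. A member was called at the study's threshold of 0.01.

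Counts of single libraries were recovered. The mean is a whole-number combination of 4 steps, each 1 over 4 times a size factor, and the fold change and its error then follow from the counts through the fit of a negative binomial model, which was repeated. All 66 members and 99.6% of tested genes had a solution, unique for 65 members. H1-4 had 2 sets of counts, and the one whose libraries differed least was taken. Tested on simulated data, all 61 simulated members came back exactly. Log2 of (count + 0.5) over the size factor was tested with limma 3.58.1 in R 4.3.3 over 23239 genes. On counts simulated for this comparison with 1 fixed dispersion, 200 genes with a mean over 50 were changed 4-fold, and 100% of them were recovered. That check did not cover changed genes with a lower mean. Benjamini-Hochberg adjustment ran over all genes tested.

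Gene structure, overlaps and stop codons came from GENCODE 44 on hg38, with 64 members matched by identifier and 2 by symbol. Overlaps with genes of the type TEC were left out. The authors counted on an earlier GENCODE release with genes added from NCBI. The overlaps and exon blocks given here therefore need not be those of the counting. Intervals are 95% intervals, and counting intervals cover counting error only. A fraction with at most 3 counts over both libraries was taken as at the floor. Named in each class were the 2 highest and 2 lowest log2 fold changes, the 2 highest means, and all members not called, at the floor, untested or with several exon blocks. Of the listed pathway genes, SLBP, NPAT, LSM11, ZNF473 and the 3 highest and 3 lowest were named. Other genes were named after their values were seen. Alternatives were the scale, threshold, adjustment, filter, test and libraries left out. The members and lists were chosen with earlier results of these data known.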

Additional observations from a re-analysis of the deposited data

How the results depend on the processing

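Scaling both fractions to equal library totals lowered the class medians of the log2 fold change to 3.27 for H1, 3.47 for H2A, 3.63 for H2B, 3.43 for H3 and 3.46 for H4, and the log2 ratios of class totals to 3.40, 3.50, 3.64, 3.62 and 3.51, by the construction of the shift. All stayed above 0. Cytoplasmic calls among members then numbered 55, with H4C13 lost. They numbered 56 with centring on the protein-coding median, 58 at a threshold of 0.05, 50 with Bonferroni adjustment, 50 with a mean over 50 and 59 with limma on recovered counts, an alternative chosen after seeing the data, and nuclear calls stayed at 0 with equal totals, centring, the looser threshold and limma. Each library was also left out in turn. Calls by limma are not given for this, because the lone library of a fraction has no spread of its own. The means of the remaining recovered libraries gave class medians from 3.78 to 4.11 for H1, 3.96 to 4.30 for H2A, 4.04 to 4.46 for H2B, 3.86 to 4.26 for H3 and 3.91 to 4.30 for H4. The log2 ratios of totals ran from 3.91 to 4.20, 3.97 to 4.33, 4.12 to 4.46, 4.09 to 4.45 and 3.94 to 4.37 in the same order. The other alternatives (minimum mean, weighting, bounds, exon blocks, repeated windows and the most abundant member) moved each class value by less than the spread between libraries. Among members with few counts, H3C3 passed limma with all libraries (adjusted p-value 0.00712) at a log2 difference of 2.17. With 1 library left out, its log2 difference lay between 2.01 and 2.32. H2AC1 and H2BC10 did not pass limma with all libraries, where their log2 differences were 2.85 and 3.02. With 1 library left out, H2AC1 lay between 2.14 and 3.56 and H2BC10 between 1.53 and 4.51. No paired analysis was possible because which recovered library carries which replicate number is not known. The planned edgeR test was not run, and limma on the recovered counts stands in its place. Depth limits the members with a mean of at most 50, whose median standard error was 1.21.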

Other observations

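H4C6, H4C7, H3C8 and H1-5, the 4 members without a test, held 3 counts together in the 4 libraries. No other gene annotated in GENCODE 44 overlapped their canonical exons, and all of their 100-base windows occur once in hg38. The counting used an earlier annotation with shared stretches removed, whose overlaps were not examined. H2AC12 and H4C4 had the largest ratios of the shallower to the deeper cytoplasmic library among members with a mean over 500, 1.57 each, and the largest standard errors in that set, 0.33 each.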
